A study of Mus musculus with 18 samples.

Results

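Hepatic glucose metabolism turns on a few enzymes, a transporter and a regulatory protein whose genes set whether the liver makes glucose or burns it. The genes described here are 9 such genes (Pcx, Pck1, Fbp1, G6pc, Slc2a2, Gckr, Pfkfb1, Pfkfb3 and Pklr), chosen by gene symbol from the 54532 genes in the deposited table, and all 9 had a mean of at least 1 FPKM (fragments per length of gene and per size of library) over the mice. Liver RNA was sequenced from 18 male C57BL/6J mice (C57BL/6 in the sample labels) in 3 groups of 6. The mice were 6 weeks old at arrival and were acclimatized for 1 week. Normal control (NC) mice stayed on a standard diet. HFD mice ate a high-fat diet for 14 weeks and then received saline with the diet continued, and SZ-A mice were treated alike but received SZ-A, the alkaloids of mulberry twig (Ramulus Mori), in place of saline. The treatment lasted 6 weeks by the methods of the study and 8 weeks by the deposited design text, and the dose and route of the sequenced SZ-A mice were not given in the sources used here. All mice were fasted overnight before the liver was taken, so the levels are those of a fasted liver. The mouse NC6 is named as a chow mouse in its title but carries a high-fat diet in its diet label. It was kept in NC, and results against NC are also given without it.

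Gluconeogenesis builds glucose from pyruvate, lactate, alanine and glycerol, and glycolysis runs the other way. The steps that differ between the routes carry the control: glucagon and fasting raise the expression of Pck1 and G6pc, while insulin lowers it, and insulin together with glucose raises Pklr. A small regulatory sugar, a fructose bisphosphate made and removed by the enzymes of the Pfkfb family, speeds glycolysis and slows the fructose bisphosphatase of gluconeogenesis.

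The members spanned a wide range of level. On the FPKM scale, which is per gene length, their means over 18 mice ran in the order Pck1 (818), Fbp1 (686), Pcx (194), G6pc (117), Slc2a2 (51.5), Pklr (29.6), Gckr (26.3), Pfkfb1 (8.01) and Pfkfb3 (3.56). Pck1 and Fbp1 ranked 67 and 77 among all genes by mean level. Neighbours in this order changed places between groups. Pck1 lay above Fbp1 in 5 of 6 NC mice, in 1 of 6 HFD mice and in 4 of 6 SZ-A mice. Pklr lay above Gckr in 0 of 6 NC mice, in 4 of 6 HFD mice and in 6 of 6 SZ-A mice. The fragments behind a value ranged from 26080 to 96302 for Pck1 and from 78 to 1143 for Pfkfb3, the gene with the fewest.

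**Figure D1:**
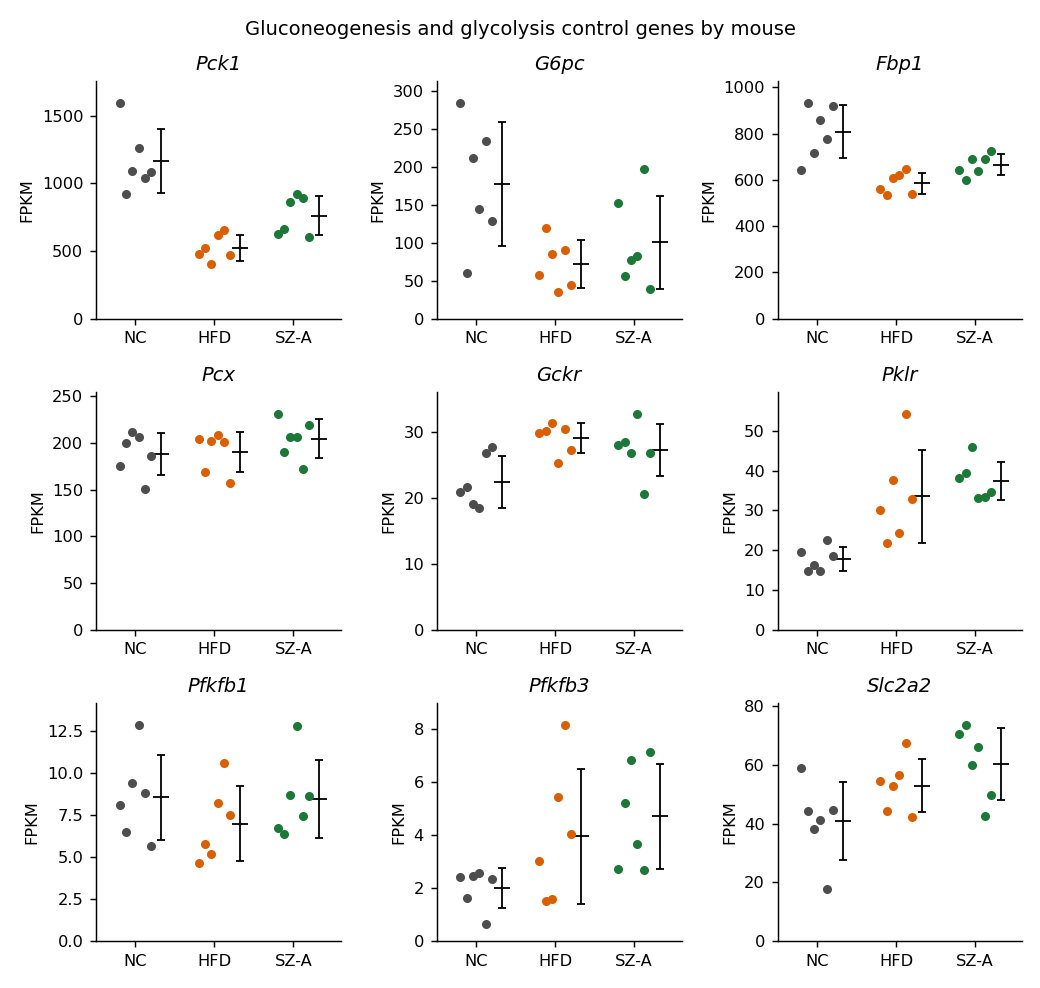
FPKM of the 9 genes in each mouse (points) for NC, HFD and SZ-A, with the mean and SD of 6 mice beside the points; every vertical axis starts at 0. Pck1 in HFD mice (406 to 659) lies below every NC mouse (919 to 1597), and Pklr in SZ-A mice (33.2 to 45.9) lies above every NC mouse (14.8 to 22.6).

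Differences were tested by limma across the 10216 genes with a mean of at least 1 FPKM, with p-values adjusted over all of these genes by the Benjamini-Hochberg method. A call required an adjusted p below 0.05 together with a fold over 1.2, and 0.1 was added to each FPKM before the log2. Between HFD and NC mice, 5 of the 9 genes were called, against 20.2% of all genes tested (19.8% without NC6). Pck1, G6pc and Fbp1 were lower in HFD mice, as were 9.49% of all genes, and Gckr and Pklr were higher, as were 10.7%. All 5 were also called without NC6. Between SZ-A and HFD mice, 0 of the 9 were called by limma, against 0.147% of all genes. At an unadjusted p under 0.05 there were 2, Pck1 and Fbp1, against 14.8% of all genes. Of the 9, voom on whole fragments called 0 and limma with sample weights called 1, Pck1. Over all genes tested, limma called 15, voom 31 and limma with sample weights 233. The study reported more genes than any of these between HFD and SZ-A mice, by DESeq2 at the same thresholds. A gene not called here is therefore not shown to be unchanged. Between SZ-A and NC mice, 3 of the 9 were called, against 9.6% of all genes (9.27% without NC6): Pck1 was lower, as were 4.3% of all genes, and Pklr and Pfkfb3 were higher, as were 5.31%. These 3 comparisons share their groups, so their values for a gene are set side by side and are not independent. For the 9 genes the median log2 fold change was 0.02 in HFD against NC, 0.21 in SZ-A against HFD and 0.12 in SZ-A against NC, beside -0.03, 0.03 and -0.01 over all genes tested.

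**Figure D2:**
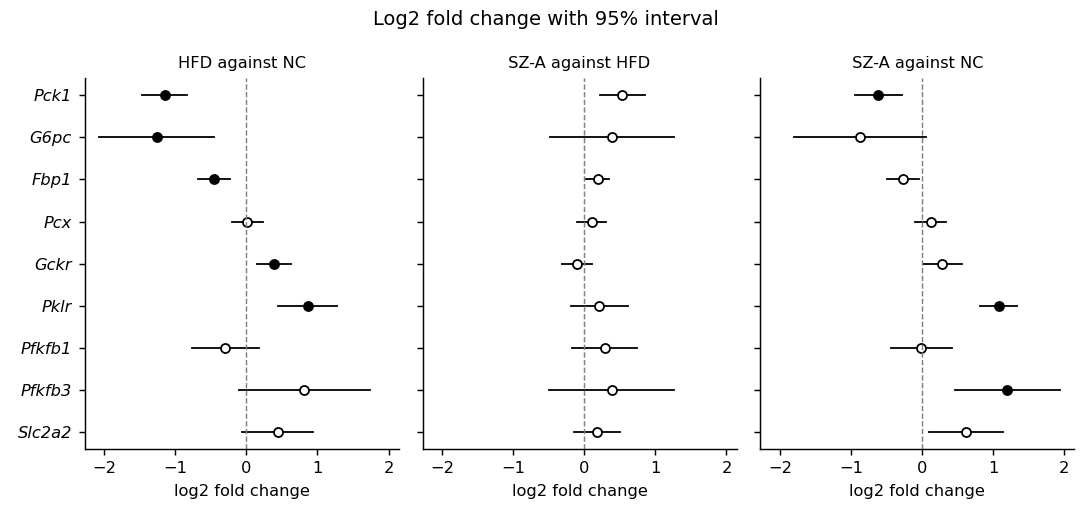
Log2 fold change (point) with its 95% interval (line) for the 9 genes in each comparison, on the log2(FPKM + 0.1) scale; filled points were called by limma. In SZ-A against HFD no point is filled, and the interval of Pck1 runs from 0.22 to 0.85.

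Markers of other cells moved with the groups, and their part in the results was not tested. The summed FPKM of 8 hepatocyte markers ran from 42951 to 61554 in the NC group, from 28974 to 48161 in the HFD group and from 34518 to 60319 in the SZ-A group. All 8 were expressed, and 1 of them, Tat, is also a fasting-responsive gene. Alb made up most of this sum, with a mean of 29448 in NC and 21469 in HFD mice. Apoa1 went from 8967 to 4752, Cps1 from 1181 to 441 and Tat from 1009 to 365. Serpina1c averaged 586 and 562, while Cyp2e1 (4678 and 4921), Ttr (3168 and 3206) and Asgr1 (310 and 328) were not lower in HFD mice. The sum of 8 macrophage and Kupffer cell markers ran from 130 to 266, 251 to 411 and 222 to 319, in the same order, and that of 8 stellate cell markers from 39.0 to 54.3, 44.8 to 101 and 41.4 to 59.8. Sums ran from 58.5 to 79.5 for 7 endothelial markers, 10.9 to 44.3 for 5 cholangiocyte markers, 0.54 to 2.58 for 6 T and B cell markers and 151 to 471 for 5 red blood cell markers over the 18 mice. The sum of 5 adipocyte markers ran from 32.9 to 115 in NC, from 51.8 to 161 in HFD and from 6.68 to 54.4 in SZ-A mice. One of them, Cfd, was at most 7.47 in NC, at 19.4 to 135 in HFD and at 1.02 to 30.9 in SZ-A mice, and another, Cidec, averaged 54.4, 30.5 and 18.7, while Adipoq, Plin1 and Lep were below 1 FPKM in every mouse. Of the pancreas acinar and the kidney and muscle lists, Pnlip and Kap were at 0 in all mice. The acinar sum, mostly Cela1, ran from 3.17 to 5.07 in NC, from 4.45 to 8.94 in HFD and from 9.16 to 10.6 in SZ-A mice. The kidney and muscle sum had a median of 0 in HFD mice but reached 26.9 in 1 of them, mostly from the muscle gene Acta1 (24.1). It was at most 4.88 in NC and 0.08 in SZ-A mice. In bulk liver, fewer cells of a type and less RNA per cell cannot be told apart.

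Pcx encodes pyruvate carboxylase, the mitochondrial enzyme that turns pyruvate into oxaloacetate at the entry to gluconeogenesis. Pcx (chromosome 19, 4510472 to 4621752, GRCm38) was at 151, 193 and 211 FPKM (lowest, median and highest) in NC, at 157, 201 and 209 in HFD and at 172, 206 and 231 in SZ-A mice. The 3 groups overlapped almost fully. The log2 fold change was 0.02 ± 0.10 (SE) for HFD against NC with a 95% interval from -0.21 to 0.24. It was 0.10 ± 0.09 for SZ-A against HFD and 0.12 ± 0.10 for SZ-A against NC (limma, adjusted p = 0.93, 0.65 and 0.49). Without NC6 the values against NC were 0.01 for HFD and 0.12 for SZ-A mice. The sign of the first value turned to -0.06 with sample weights, and that of the SZ-A against HFD value turned to -0.07 when FPKM were scaled to a common sum.

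Pck1 encodes the cytosolic phosphoenolpyruvate carboxykinase, which takes oxaloacetate to phosphoenolpyruvate and is a classic target of glucagon, glucocorticoid and insulin signals. Its promoter is shown because Pck1 had the clearest difference between diets of the gluconeogenic genes. The 250 bases before the RefSeq start of Pck1 (GRCm38.p6, chr2:173152823-173153072, plus strand) are given 5′ to 3′ with TTACGT, the core of the cyclic AMP response element of this promoter, in capitals.
Pck1: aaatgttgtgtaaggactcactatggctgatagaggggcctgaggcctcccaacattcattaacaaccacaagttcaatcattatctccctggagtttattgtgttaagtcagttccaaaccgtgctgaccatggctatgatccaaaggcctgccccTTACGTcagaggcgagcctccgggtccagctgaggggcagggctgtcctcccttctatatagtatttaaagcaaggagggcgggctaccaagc
The match begins at position -93 from the start. TTACGT or its reverse complement ACGTAA was in 2.4% of 32851 RefSeq windows of this length. A match is a description of the letters and not evidence of binding.

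Pck1 (chromosome 2, 173153048 to 173159273) was at 919, 1091 and 1597 FPKM in NC, at 406, 500 and 659 in HFD and at 607, 762 and 923 in SZ-A mice. The HFD mice lay below every NC mouse, with no overlap, which held for 4.97% of all genes in this comparison and direction. The SZ-A mice lay between: 4 of 6 were above the highest HFD mouse, and 5 of 6 were below the lowest NC mouse. Pck1 was 2.22-fold lower in HFD than in NC mice (log2 fold change -1.15 ± 0.15 SE, limma adjusted p = 0.000253), and -1.17 without NC6. An exact two-sided permutation test of Pck1 alone gave p = 0.00216, the smallest that 6 against 6 mice can give. Against HFD mice, SZ-A mice were 1.45-fold higher (log2 fold change 0.53 ± 0.15, 95% interval 0.22 to 0.85), but the limma adjusted p of 0.133 missed the threshold. The exact permutation p of this gene alone was 0.013, which is not adjusted for the genes tested. With sample weights the adjusted p was 0.0489, and over all alternatives it ranged from 0.0489 to 0.441. Against NC mice, SZ-A mice were 1.53-fold lower (log2 fold change -0.61 ± 0.15, adjusted p = 0.0236 by limma, and 0.0347 without NC6). This call was lost without NC4 (adjusted p = 0.0509), SZ-A1 (0.0539) or SZ-A6 (0.0575), and with no filter on low genes (0.205).

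Fbp1 encodes the liver fructose bisphosphatase, which opposes phosphofructokinase. Fbp1 (chromosome 13, 62864753 to 62888282) was at 644, 818 and 934 FPKM in NC, at 534, 585 and 646 in HFD and at 600, 667 and 725 in SZ-A mice. All but 1 of the HFD mice lay below the lowest NC mouse, and 3 of 6 SZ-A mice lay above the highest HFD mouse. Fbp1 was 1.37-fold lower in HFD than in NC mice (log2 fold change -0.46 ± 0.10, limma adjusted p = 0.00818), and -0.42 without NC6 (0.0174). When FPKM were scaled to a common sum, which moved the median log2 fold change of all genes from -0.03 to 0.15, the difference was -0.27 and was no longer called (adjusted p = 0.079). SZ-A mice were 1.14-fold higher than HFD mice (log2 fold change 0.19 ± 0.08, 95% interval 0.02 to 0.35), which was not called (adjusted p = 0.269). At a common sum this difference was 0.008 (95% interval -0.14 to 0.16), while the median of all genes moved from 0.03 to -0.15. SZ-A mice were 1.21-fold below NC mice with an adjusted p of 0.115 by limma (0.194 without NC6).

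G6pc encodes the catalytic subunit of glucose-6-phosphatase, which releases free glucose in the last step of both gluconeogenesis and glycogen breakdown. Its promoter is shown beside that of Pck1 because the same hormones control both genes. The 250 bases before the RefSeq start of G6pc (GRCm38.p6, chr11:101367466-101367715, plus strand) are given with 2 kinds of match in capitals: TTACGT or ACGTAA, which overlap here, and TGTTTT or AAAACA, the core bound by FOXO factors, through which insulin lowers G6pc.
G6pc: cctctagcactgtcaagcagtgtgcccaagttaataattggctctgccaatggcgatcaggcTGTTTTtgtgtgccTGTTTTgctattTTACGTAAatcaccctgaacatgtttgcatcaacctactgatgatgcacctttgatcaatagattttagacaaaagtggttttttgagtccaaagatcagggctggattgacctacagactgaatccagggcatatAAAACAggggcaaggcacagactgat
TTACGT begins at -162 and ACGTAA at -160. TGTTTT begins at -188 and at -174, and AAAACA at -26. TGTTTT or its reverse complement AAAACA was in 19.8% of all windows, and among the 9 genes it was also found in that of Gckr, at -83. No match says only that the letters are not in these 250 bases.

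G6pc (chromosome 11, 101367561 to 101377903) was at 60.5, 179 and 285 FPKM in NC, at 34.6, 71.6 and 120 in HFD and at 38.5, 79.8 and 198 in SZ-A mice. The groups overlapped, because NC2 (60.5) sat among the HFD mice and SZ-A1 (153) and SZ-A5 (198) sat among the NC mice. G6pc was 2.4-fold lower in HFD than in NC mice (log2 fold change -1.26 ± 0.38, limma adjusted p = 0.0305), and -1.32 without NC6 (0.0371). This call was lost without any 1 of NC1, NC3, NC5, HFD1, HFD4 or HFD6 (adjusted p between 0.0558 and 0.0662), with a common sum (0.0505), with no filter on low genes (0.24) and with the replicate number as a block (0.055). SZ-A mice differed from HFD mice by 0.39 ± 0.40 (95% interval -0.48 to 1.26, adjusted p = 0.696) and from NC mice by -0.87 ± 0.43 (95% interval -1.80 to 0.05, adjusted p = 0.219, and -0.94 with 0.232 without NC6). With the replicate block the latter was called (adjusted p = 0.0425). G6pc varied more than most genes between mice of 1 group: its log2 SD of 0.81 among NC, 0.68 among HFD and 0.88 among SZ-A mice was above that of 95.9% to 97.5% of all genes tested, and the median SD of all genes was 0.19 to 0.23.

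Slc2a2 encodes GLUT2, the glucose transporter of the hepatocyte membrane, which carries glucose in either direction. Slc2a2 (chromosome 3, 28697903 to 28731359) was at 17.9, 42.9 and 58.9 FPKM in NC, at 42.3, 53.6 and 67.6 in HFD and at 42.6, 63.0 and 73.7 in SZ-A mice. The lowest value was that of NC5, and the groups overlapped. The log2 fold change was 0.44 ± 0.23 in HFD against NC (adjusted p = 0.193, and 0.191 without NC6), 0.18 ± 0.15 in SZ-A against HFD (adjusted p = 0.612) and 0.62 ± 0.24 in SZ-A against NC mice (adjusted p = 0.123, and 0.131 without NC6, all by limma). The last had a 95% interval from 0.10 to 1.14 and was called with sample weights (adjusted p = 0.0275) and with the replicate block (0.0307).

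Gckr encodes a regulatory protein of the hepatocyte nucleus that restrains glucose use when fructose phosphate is plentiful and glucose is low. Gckr (chromosome 5, 31297443 to 31327314) was at 18.5, 21.3 and 27.8 FPKM in NC, at 25.3, 30.1 and 31.4 in HFD and at 20.7, 27.5 and 32.8 in SZ-A mice. In 4 of 6 HFD mice the value exceeded that of every NC mouse. Gckr was 1.31-fold higher in HFD than in NC mice (log2 fold change 0.39 ± 0.11, limma adjusted p = 0.0241), and 0.45 without NC6 (0.009), the NC mouse with the highest value. The call was lost without NC3 (adjusted p = 0.0526), NC4 (0.0542) or HFD3 (0.0508), and with no filter (0.14). The difference was -0.10 ± 0.10 between SZ-A and HFD mice (95% interval -0.32 to 0.11, adjusted p = 0.672) and 0.29 ± 0.13 between SZ-A and NC mice (adjusted p = 0.18, and 0.0996 without NC6).

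Pfkfb1 encodes the liver form of the bifunctional enzyme that makes and removes the regulatory fructose bisphosphate. Pfkfb1 (chromosome X, 150588229 to 150643878) was at 5.66, 8.47 and 12.9 FPKM in NC, at 4.68, 6.65 and 10.6 in HFD and at 6.36, 8.05 and 12.8 in SZ-A mice, and the groups overlapped. The log2 fold change was -0.29 ± 0.22 in HFD against NC (95% interval -0.77 to 0.18, adjusted p = 0.37) and 0.29 ± 0.21 in SZ-A against HFD mice (95% interval -0.17 to 0.74, adjusted p = 0.565, by limma). Between SZ-A and NC mice it was -0.01 ± 0.20, and its sign turned with a common sum (0.0047) and without any 1 of NC3, NC4, NC5, SZ-A1, SZ-A2 and SZ-A5. Without NC6 the values against NC were -0.40 for HFD and -0.12 for SZ-A mice, neither of them called.

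Pfkfb3 encodes the inducible form of the same enzyme family, which mainly makes the fructose bisphosphate. Pfkfb3 (chromosome 2, 11471433 to 11554077) was at 0.64, 2.37 and 2.56 FPKM in NC, at 1.5, 3.52 and 8.16 in HFD and at 2.68, 4.44 and 7.15 in SZ-A mice. Every SZ-A mouse lay above every NC mouse, which held for 2.83% of all genes in that comparison and direction. HFD mice were split, with 4 above all NC mice and 2 (1.5 and 1.58) within the NC range. Pfkfb3 was 2.3-fold higher in SZ-A than in NC mice (log2 fold change 1.2 ± 0.34, limma adjusted p = 0.0436). Without NC6 the difference was 1.27 but the adjusted p was 0.0516. The call was also lost without NC1 (0.0568), NC2 (0.0787), NC3 (0.0546), NC4 (0.0516), SZ-A2 (0.0793), SZ-A3 (0.1), SZ-A4 (0.0591) or SZ-A6 (0.0965), with FPKM at a common sum (0.0649), with all 18 mice in one fit (0.0617) and with no filter (0.349). An exact two-sided permutation test of the gene alone gave 0.00216, the smallest possible p. Between HFD and NC mice the difference was 0.82 ± 0.42 (95% interval -0.10 to 1.73, adjusted p = 0.191, and 0.197 without NC6), and between SZ-A and HFD mice it was 0.38 ± 0.41 (95% interval -0.50 to 1.27, adjusted p = 0.709). Its SD within a group was above that of 94.5% to 98.2% of all genes.

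Pklr encodes the liver pyruvate kinase, which makes pyruvate in the last step of glycolysis and is switched on by glucose and insulin. RefSeq gives it 2 starts, of which the downstream one makes the liver form. The 250 bases before that start (GRCm38.p6, chr3:89136373-89136622, plus strand) are shown because they hold the carbohydrate response element, in capitals, on which the glucose-sensing factor ChREBP (gene Mlxipl) acts.
Pklr: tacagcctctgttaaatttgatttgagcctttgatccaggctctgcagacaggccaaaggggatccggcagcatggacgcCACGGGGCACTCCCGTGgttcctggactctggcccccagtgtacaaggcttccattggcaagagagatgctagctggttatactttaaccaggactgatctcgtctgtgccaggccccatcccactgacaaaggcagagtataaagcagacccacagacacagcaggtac
The element begins at -170. It was searched as CACGGG, 5 bases of any kind, and CCCGTG, which reads the same on both strands, and this spelling was chosen from the known Pklr element. It was in 1 of 32851 windows (0.00304%), that of Pklr itself. Looser forms of the element were not searched.

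Pklr (chromosome 3, 89136142 to 89146784) was at 14.8, 17.4 and 22.6 FPKM in NC, at 21.7, 31.5 and 54.3 in HFD and at 33.2, 36.3 and 45.9 in SZ-A mice. Of the HFD mice, 5 of 6 lay above every NC mouse, and the SZ-A mice lay above every NC mouse, with no overlap, as did 2.83% of all genes in that comparison and direction. Pklr was 1.82-fold higher in HFD than in NC mice (log2 fold change 0.86 ± 0.19, limma adjusted p = 0.00751, and 0.0124 without NC6), a call that was lost with no filter (0.0803). It was 2.11-fold higher in SZ-A than in NC mice (log2 fold change 1.08 ± 0.12, adjusted p = 0.000351, and 0.00105 without NC6). Between SZ-A and HFD mice the difference was 0.21 ± 0.19 (95% interval -0.19 to 0.62, adjusted p = 0.637). The HFD mice spread more widely, with an SD of 0.47 on the log2 scale against 0.24 in NC and 0.18 in SZ-A mice. The 3′ end of Pklr overlaps 711 bases of Hcn3 on the opposite strand. The library kit is not stated to keep the strand, so reads from the 2 genes cannot be told apart there. Hcn3 was at 0.18 to 3.39 FPKM in the 18 mice, well below Pklr.

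Ratios within a mouse do not depend on how libraries are scaled to each other, and are given with no test. The log2 ratio of Pck1 to Pklr, the enzymes on either side of phosphoenolpyruvate, was 5.52, 6.01 and 6.42 (lowest, median and highest) in NC, 3.43, 3.91 and 4.66 in HFD and 4.04, 4.18 and 4.80 in SZ-A mice. Both groups on the high-fat diet lay below every NC mouse. Against NC, Pck1 was called lower and Pklr higher in both groups, so this separation restates those calls. No share over other pairs of genes was taken. Without NC6 the NC median was 6.06 and the lowest and highest values were as before. The log2 ratio of Pfkfb3 to Pfkfb1 had medians of -1.97, -0.76 and -0.83 in the same order of groups, which overlapped, and the NC median was -1.997 without NC6.

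**Figure D3:**
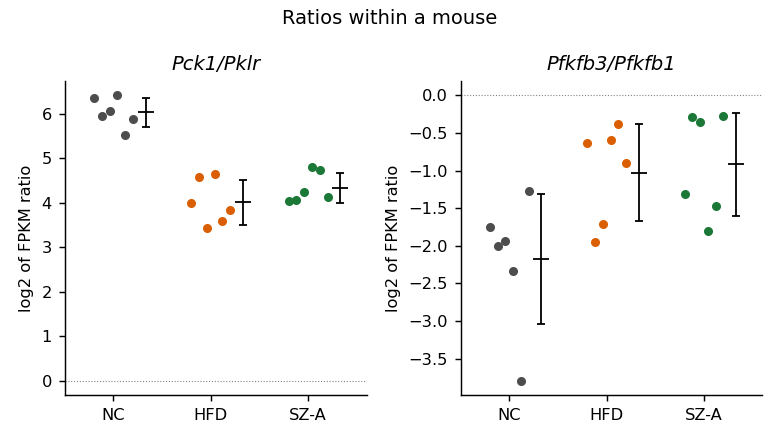
Log2 ratio of FPKM between 2 genes within each mouse (points), with the mean and SD of 6 mice beside the points; the dotted line marks equal FPKM. The ratio of Pck1 to Pklr is at 5.52 or above in NC mice and at 4.80 or below in all mice on the high-fat diet.

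Other genes of the same pathways were taken as 5 lists, of which 93 different genes were tested. In HFD against NC mice 28 of the 93 were called, 7 higher and 21 lower (30 without NC6), or 30.1% against 20.2% of all genes. With FPKM at a common sum the split was 11 higher and 14 lower, beside 2100 higher and 334 lower among all 10216 genes. In SZ-A against HFD mice limma called 0 of the 93, with 20 at an unadjusted p under 0.05, beside 14.8% of all genes. Voom also called 0. In SZ-A against NC mice 20 were called, 6 higher and 14 lower (20 without NC6), or 21.5% against 9.6% of all genes. Of the pathway genes named below, all kept their calls without NC6 except Creb3l3 and Cebpb.

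Of 19 other enzymes of glycolysis and gluconeogenesis, 4 were higher and 5 lower in HFD than in NC mice (4 and 6 without NC6), or 47.4% against 20.2% of all genes. The higher ones included Pkm, the pyruvate kinase of other tissues (log2 fold change 0.75), at 3.79 ± 0.23 FPKM in NC and 6.47 ± 0.88 in HFD mice (mean ± SD, n = 6), and Pfkl, the liver phosphofructokinase (0.55). The lower ones included Aldoa, an aldolase (-0.50), and Pfkfb2, another bifunctional enzyme (-0.69). Aldoa was no longer called at a common sum (adjusted p = 0.0792). In SZ-A against NC mice 3 were higher and 2 lower (3 of each without NC6), or 26.3% against 9.6% of all genes. Among them were Pfkl (0.40) and Pkm (0.31), higher, and Pfkfb2 (-0.69), lower. The call of Pkm was lost without 7 of the 12 mice in turn (NC1, NC2, NC4, SZ-A2, SZ-A3, SZ-A5, SZ-A6), and that of Pfkfb2 without 6 (NC1, NC3, NC4, SZ-A1, SZ-A2, SZ-A6), with limma adjusted p up to 0.0798 and 0.0711. That of Pkm was also lost at a common sum (0.0893), with a pseudocount of 1, with no filter, with sample weights and with the replicate block.

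Of 26 genes that supply pyruvate, lactate, alanine and glycerol, 1 was higher and 6 were lower in HFD than in NC mice (2 and 6 without NC6), or 26.9% against 20.2% of all genes. Slc16a7, a monocarboxylate transporter, was higher (0.64). Got1, the cytosolic aspartate aminotransferase, fell by 2.27 on the log2 scale from 283 ± 134 to 55.7 ± 15.8 FPKM, Ldha, a lactate dehydrogenase subunit, by 0.82 and Slc16a1, another lactate and pyruvate carrier, by 0.91. In SZ-A against NC mice 6 were called, all lower (5 without NC6), or 23.1% against 4.3% of all genes called lower. Among them were Got1 (-2.47), Sds, the serine dehydratase that yields pyruvate (-1.34), and Gpt2, an alanine aminotransferase (-0.59). Of 7 genes of fructose entry and hexose transport, limma called 0 in HFD against NC mice (1 without NC6). At an unadjusted p under 0.05 there were 4, beside 34.8% of all genes. In SZ-A against NC mice 1 was called, or 14.3% against 9.6% of all genes: Khk, the fructokinase (0.54).

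Of 29 hormonal and transcriptional regulators, 3 were called in HFD against NC mice, or 10.3%, beside 20.2% of all genes. Srebf1, which carries the lipogenic response to insulin, was higher (1.53 ± 0.34, adjusted p = 0.00752 by limma), from 6.96 ± 3.26 to 20.9 ± 10.02 FPKM. Mlxipl, the gene of ChREBP, was higher (0.59, adjusted p = 0.0338), though not without any 1 of 8 mice (NC1, NC2, NC3, NC4, HFD1, HFD2, HFD3 or HFD6, adjusted p up to 0.0711). Creb3l3, a fasting-responsive factor, was lower (-0.29, adjusted p = 0.0396 by limma), though not without NC6 (0.0515), at a common sum (-0.10, 0.452) or without any 1 of 9 other mice (NC2, NC3, NC4, NC5, HFD1, HFD2, HFD3, HFD5 or HFD6). In SZ-A against NC mice 2 were called, or 6.9% beside 9.6% of all genes: Mlxipl (0.70) and Cebpb (0.57), and Cebpb was not called without NC6 (0.0557) or without NC2, NC3, SZ-A2, SZ-A3 or SZ-A6.

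Of 15 fasting-responsive genes, 9 were lower and 0 higher in HFD than in NC mice, or 60% against 9.49% of all genes called lower, with a list median of -0.72 (9 lower and a median of -0.77 without NC6). They included Cpt1a, the gate of fatty acid entry into mitochondria (-0.66), Cyp4a10, a fatty acid hydroxylase (-0.998), and Angptl4 (-0.66). In SZ-A against NC mice 7 were lower and 0 higher, or 46.7% against 4.3% of all genes called lower. Among them were Ehhadh (-1.28), Cyp4a10 (-0.79) and Cpt1a (-0.44). The list median was -0.79 (7 lower and -0.91 without NC6). In SZ-A against HFD mice limma called 0 of the 15, with 4 at an unadjusted p under 0.05, beside 14.8% of all genes. The list median was 0.21.

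**Figure D4:**
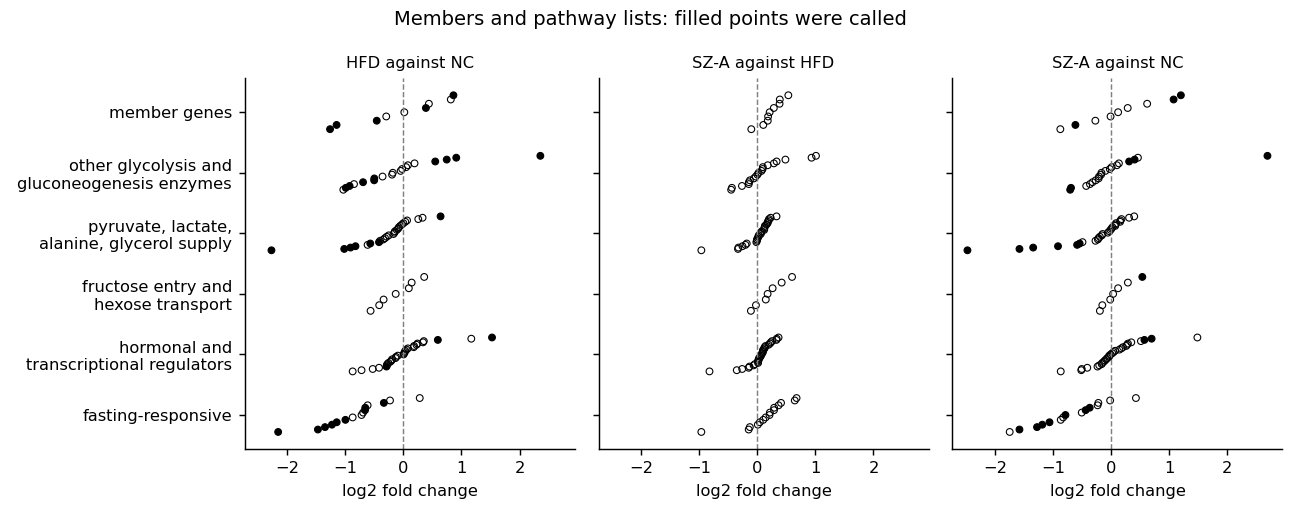
Log2 fold change of each tested gene (points) in the 9 genes and the 5 pathway lists, by comparison, on the log2(FPKM + 0.1) scale; filled points were called by limma. In HFD against NC the fasting-responsive list has 9 filled points, all below 0, and in SZ-A against HFD no point is filled.

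Genes with deviations from the group means most similar to those of each of the 9 were named, as a description chosen among 10216 genes. The Pearson r was taken over 18 mice on the log2 scale. G6pc was closest to Zswim4 (r = 0.85), Igfbp1 (0.83), which encodes an insulin-like growth factor binding protein that insulin lowers, and Terf1 (0.82). Pklr was closest to Hcn3 (0.88), with which it shares bases, Mak16 (0.80) and Cwc25 (0.77). Pfkfb3 was closest to Slco2b1 (0.86), Ssfa2 (0.86) and the clock gene Per1 (0.85). Slc2a2 was closest to Serpind1 (0.92) and Atl3 (0.90). Pck1 was closest to Rabgef1 (0.81), Glyr1 and Zfp385b, and Fbp1 to F10 (0.82), Gngt2 and Gjb2. Gckr was closest to Gnmt (0.85), Ccl27a and Haao, Pcx to Shc1 (0.85), and Aldh1a7, and Pfkfb1 to Eif3j1 (0.88), Actr6 and Slc25a44.

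Igfbp1, itself on the fasting-responsive list, ranged over 21.2 to 622 FPKM among NC, 13.2 to 48.3 among HFD and 9.45 to 436 among SZ-A mice. The SZ-A range rested on SZ-A5 (436), since the other 5 mice had at most 43.9. The same mouse had the highest G6pc (198) of its group. Other SZ-A mice did not follow this order: SZ-A1 had the next highest G6pc (153) but an Igfbp1 of 35.6. SZ-A3 and SZ-A4 had more Igfbp1 (43.9 and 43.2) with less G6pc (76.9 and 82.7). In NC, NC2 had the lowest Igfbp1 (21.2) and the lowest G6pc (60.5), while the mice with the highest G6pc, NC1 (285) and NC5 (234), had the highest Igfbp1 (349 and 622). In HFD, HFD2 had the highest G6pc (120) and the highest Igfbp1 (48.3). The time without food of each mouse is not given in the sources used here, and its part in these values was not tested.

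**Figure D5:**
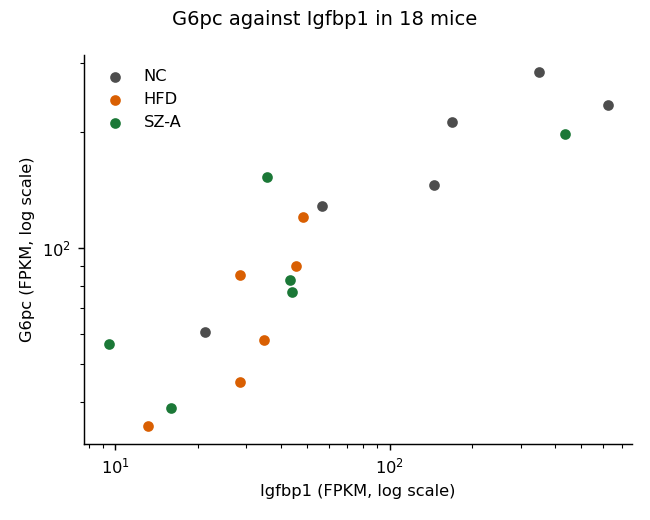
G6pc against Igfbp1 in each mouse, in FPKM on log axes, with a color per group. SZ-A5 lies at 198 FPKM of G6pc with 436 of Igfbp1, beside the NC mice.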

How the data were processed

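Liver RNA of 18 mice, 6 per group, was poly-A selected and sequenced from both fragment ends. The submitters' processing notes name HISAT2 2.0.5, featureCounts 1.5.0-p3 and mm10 (GRCm38). The authors deposited FPKM per gene with gene length, and the library total behind the FPKM is not stated. FPKM times length gave whole fragments for 100% of values within 0.05 of a fragment, with 17163191 to 20493907 fragments on genes per mouse, and the library size behind the FPKM was this total times 0.9325 to 1.0248 among NC, 0.9983 to 1.1414 among HFD and 0.9718 to 1.0468 among SZ-A mice. Counting error was not separated from the differences between mice.

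Each comparison was fitted on its own 2 groups in R 4.3.3 with limma 3.58.1 (lmFit, eBayes with an intensity trend) on log2(FPKM + 0.1), for genes averaging 1 FPKM or more, and adjusted by Benjamini-Hochberg over all of them. The script was tested on simulated data. The authors used DESeq2, which needs counts. It was run neither on FPKM nor on the whole fragments recovered from them, to which voom was applied. Groups came from the sample titles. Nothing in the labels says more of the replicates than that they are separate mice of a group, and p-values measure the spread between these samples. The 9 genes, the pathway and marker lists and the tests were chosen with earlier results of these data known.

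Alternatives were pseudocounts of 1 and 0.01, no filter, a mean FPKM of at least 5, median-ratio scaling, a common sum per mouse, voom on the whole fragments, all 18 mice in one fit, sample weights, no trend, a block for the replicate number, omission of each mouse, an exact permutation test per gene and calls without a fold change threshold. The genes named are the 9, up to 3 called genes of smallest adjusted p per pathway list, comparison and direction, and the 3 most similar genes of each member. Some genes that this rule covers are not reported here. Other genes named were chosen after their values were seen. Promoters were taken from RefSeq (GRCm38.p6), which matched 9 of 9 genes with 15 starts. Positions count -1 as the last base before the start, and motifs were searched on both strands. Figures were drawn with Python 3.11.15 and matplotlib 3.10.9.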

Additional observations from a re-analysis of the deposited data

Results flagged for a closer look

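In 33 groups of 6 mice (the 9 genes and 2 ratios in 3 groups), 1 value stood apart from the others of its group by Dixon's 95% criterion, a gap of more than 0.625 of the group's range. Pfkfb1 in SZ-A4 was at 12.8 FPKM, and the other 5 SZ-A mice were at 6.36 to 8.70. Chance flags about 1 group in 20 at this level.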

How the results depend on the processing

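Counts of called genes among the 9 were within 1.5 times under most alternatives. Without a filter, which adds 44316 genes to the adjustment, limma called 2 (HFD against NC, 5 as reported) and 1 (SZ-A against NC, 3 as reported) of the 9, and 13 (28 as reported) and 2 (20 as reported) of the other pathway genes. A common sum gave 3 of the 9 in HFD against NC, and in SZ-A against HFD 2 other pathway genes where 0 were reported. In SZ-A against HFD, one fit of all 18 mice called 1 other pathway gene, and sample weights called 4 of these and 1 of the 9. In SZ-A against NC, sample weights called 5 of the 9. A common sum, one fit of all 18 mice and a mean FPKM of at least 5 each called 2. The cause of these changes was not tested. No filter raises the number of genes tested, and it also changed the unadjusted limma p, as for G6pc in HFD against NC (0.00504 with the filter and 0.0139 without). With 1 mouse left out, the 9 genes gave 3 to 5 calls in HFD against NC, 0 in SZ-A against HFD and 1 to 3 in SZ-A against NC, and the other pathway genes 22 to 30, 0 to 1 and 13 to 23. The sign of Pcx turned in HFD against NC with sample weights (-0.061) and over the omissions (-0.045 to 0.069), and in SZ-A against HFD at a common sum (-0.074). That of Pfkfb1 in SZ-A against NC turned at a common sum (0.0047) and over the omissions (-0.14 to 0.12). No other sign turned. Pfkfb3 has no value at a mean FPKM of at least 5.

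The labels do not say that replicate numbers pair the mice. Same-numbered deviations correlated at -0.12 to 0.10, -0.07 to 0.29 and -0.04 to 0.11 in the 3 comparisons, and 1, 1 and 3 numbers had their best match with themselves. With 6 numbers per comparison, these values cannot decide whether the mice were paired. With the replicate block limma called 4, 0 and 5 of the 9, and 30, 0 and 18 of the other pathway genes. Pfkfb3 had the fewest fragments of the 9 genes, with 78 in the lowest mouse, and the part of depth in its result was not tested.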

Other observations

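Between SZ-A and HFD mice, 20 of the 93 other pathway genes had an unadjusted p under 0.05 and none was called by limma, 14 higher and 6 lower in SZ-A mice, beside 14.8% of all genes tested. The split by direction over all genes is not given here. With FPKM at a common sum, 14 of the 93 had such a p and 2 were called lower, beside 10 called higher and 206 lower among all genes. The genes named here were chosen after their values were seen. The smallest adjusted p was that of Pkm, the pyruvate kinase of other tissues, which was at 5.50 to 7.70 FPKM in HFD and at 4.02 to 5.32 in SZ-A mice with no overlap, as held for 0.489% of all genes (log2 fold change -0.44 ± 0.10 SE, adjusted p = 0.0961). Pdk4, a kinase that shuts pyruvate dehydrogenase, was at 2.91 to 8.05 FPKM in HFD and at 1.71 to 7.32 in SZ-A mice (-0.96 ± 0.32, adjusted p = 0.193). Without SZ-A5, the highest SZ-A mouse, the difference was -1.25 and was called (limma adjusted p = 0.0393). With any other mouse left out, none of the 93 was called.

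Slc37a4, the transporter that brings glucose 6-phosphate to the G6pc enzyme, was at 28.3 to 72.0 FPKM in HFD and at 55.6 to 86.6 in SZ-A mice (0.48 ± 0.19, limma adjusted p = 0.25). Klf15, a glucocorticoid-responsive factor of amino acid use and gluconeogenesis, was at 55.2 to 75.4 and at 70.4 to 92.0 FPKM (0.33 ± 0.09, adjusted p = 0.139).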
